A study of Mus musculus with 4 samples.

Results

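Of the strongest accessible regions of 10T1/2 mouse embryonic fibroblasts, 4655 lay at the end of a protein-coding gene and were open in every library, with and without Ranbp2. They were found by shortening each of 4 peak lists to the length of the shortest one, keeping the peaks with the highest −log10 q (the peak caller's significance at the summit, ties by fold enrichment), and merging peaks that overlapped by at least 1 bp. A region was kept where all 4 lists contributed a peak and its midpoint lay within 1 kb of either end of a RefSeq gene span. They made up 52.1% of the 8935 regions open in all 4 lists and were drawn from 19880 merged regions. The other 4280 regions open in all 4 lists lay inside genes (2230) or outside them (2050), away from gene ends.

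The assay was ATAC-seq, whose transposase cuts open DNA and leaves sequencing adapters there, and the comparison asks which open regions differ between cells without and with Ranbp2. Ranbp2 encodes a large protein of the filaments on the outer side of nuclear pores, which binds the GTPase Ran and helps attach SUMO to other proteins. Of the 4 libraries, 2 came from Ranbp2 knockout cells and 2 from wild-type cells, both 10T1/2, a mesenchymal line from mouse embryos grown in the same medium. The knockout was made with CRISPR-Cas9 and, per the series' design text, is 1 clone raised from a single sorted cell, so the effect of the knockout and of the choice of clone cannot be told apart. No label states that the replicates of a genotype were separate cultures, and a p-value here therefore reflects how far these libraries scatter, perhaps for technical reasons.

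The start of an active gene is usually free of nucleosomes, because transcription factors and the polymerase hold it open, and this gap is what the transposase reaches. Promoters of genes that every cell uses mostly lie in CpG islands, stretches rich in G, C and the CG pair, and carry sites for factors such as NF-Y, Sp and Klf proteins, ETS factors, NRF1 and YY1. Genes that only some cell types use more often have a TATA box or depend on distant enhancers bound by factors such as AP-1 and TEAD.

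Lines for 9 promoters follow, taken from RefSeq sequence of build GRCm38.p6, whose main chromosomes have the same coordinates as mm10. Each gives 120 bases around the summit in the direction of transcription. Pxmp4, Pja2 and Fxr2 are shown as the strongest regions with a summit inside the promoter window of the sequence table, Acsl3, Acta2 and Uba2 as those that ranked furthest above wild type in knockout, and Syvn1, Macrod2 and Isoc2a as those that ranked furthest below. Capitals mark exact matches, on either strand, to CCAAT (bound by NF-Y), GGGCGG (Sp and Klf factors), CCGGAAG (ETS), or any other motif named below.
Pxmp4 (chr2:154603717-154603836, minus strand): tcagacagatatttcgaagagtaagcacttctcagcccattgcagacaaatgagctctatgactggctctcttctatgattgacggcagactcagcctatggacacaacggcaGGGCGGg
Pja2 (chr17:64332014-64332133, minus strand): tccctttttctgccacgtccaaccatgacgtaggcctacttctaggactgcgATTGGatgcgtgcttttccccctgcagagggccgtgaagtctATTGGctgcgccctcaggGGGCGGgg
Fxr2 (chr11:69632721-69632840, plus strand): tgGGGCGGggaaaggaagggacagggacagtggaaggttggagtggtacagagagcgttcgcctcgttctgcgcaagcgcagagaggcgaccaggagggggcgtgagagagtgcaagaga
Acsl3 (chr1:78657709-78657828, plus strand): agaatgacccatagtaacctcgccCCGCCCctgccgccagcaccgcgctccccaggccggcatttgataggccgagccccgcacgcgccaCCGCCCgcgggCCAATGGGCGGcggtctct
Acta2 (chr19:34255358-34255477, minus strand): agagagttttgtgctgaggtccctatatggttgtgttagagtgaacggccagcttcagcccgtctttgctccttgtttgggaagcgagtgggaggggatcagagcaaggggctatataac
Uba2 (chr7:34168505-34168624, minus strand): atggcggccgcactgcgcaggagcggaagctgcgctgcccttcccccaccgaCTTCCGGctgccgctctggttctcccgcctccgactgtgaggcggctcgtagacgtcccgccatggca
Syvn1 (chr19:6046390-6046509, plus strand): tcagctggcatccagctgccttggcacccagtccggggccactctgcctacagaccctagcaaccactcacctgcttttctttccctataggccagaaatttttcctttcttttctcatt
Macrod2 (chr2:140395335-140395454, plus strand): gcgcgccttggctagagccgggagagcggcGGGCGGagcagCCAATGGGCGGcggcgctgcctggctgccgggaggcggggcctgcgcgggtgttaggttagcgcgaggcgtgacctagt
Isoc2a (chr7:4876941-4877060, plus strand): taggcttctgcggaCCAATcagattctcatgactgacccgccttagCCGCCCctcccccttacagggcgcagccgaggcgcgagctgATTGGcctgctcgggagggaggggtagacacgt
Matches were not alike within a group. Acsl3, Macrod2 and Isoc2a carry both CCAAT and GGGCGG, Uba2 has an ETS match, and the stretches of Acta2 and Syvn1 have no match to any of the 10 motifs searched.

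Most gene-end regions sat on annotated gene starts. A start from the sequence table lay within 1 kb of the midpoint of 3801 (81.7%), while 137 (2.94%) lay only at an end that is not a start in that table. The remaining 592 (12.7%) were at genes whose start is not in that table and 125 were on chromosome 18, which was not used for sequence. Summits lay a median of 65.5 bp upstream of the nearest start (quartiles -121 to -20 bp), and 82.6% fell between -200 and 100 bp. By library the medians were -66 and -65 bp in knockout replicates 1 and 2, and -66 and -65 bp in wild-type replicates 1 and 2. A summit called in knockout replicate 2 lay a median of 8 bp from the summit called in wild-type replicate 1, and the other 5 pairs of libraries had medians of 11 to 18 bp.

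**Figure D1:**
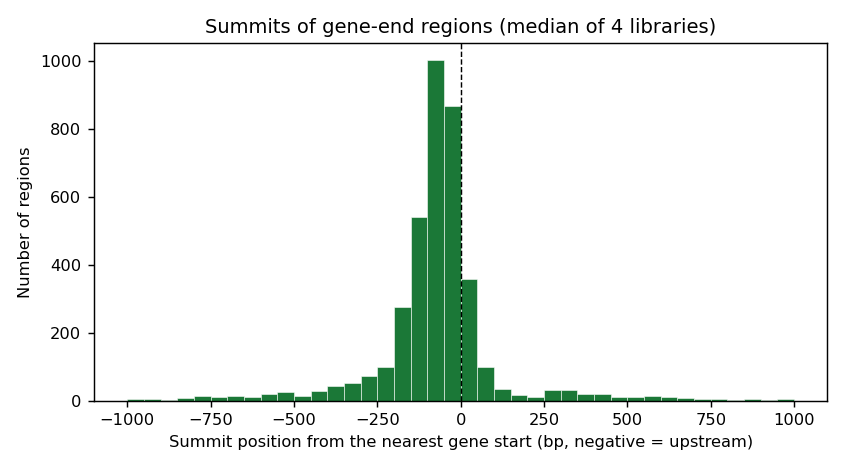
Number of gene-end regions (vertical axis) by the position of the summit relative to the nearest gene start (horizontal axis, bp, 50-bp bins, median summit of the 4 libraries, 3801 regions with a start in the sequence table). The dashed line is the start, and 81.7% of summits lie upstream of it.

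Divergent promoters, where neighbouring genes start back to back, supplied 530 regions (11.4%), and these were stronger than the rest. Strength is given as a rank percentile, the share of a list's kept peaks that a peak outranks, so that 100 is the strongest. Regions at divergent starts had a median mean percentile of 74.8 over the 4 libraries, against 69.96 for starts of a single gene. Those at another end of a gene had 60.1. In total 5289 of 21887 protein-coding genes (24.2%) had such a region at an end, and 938 regions served more than 1 gene.

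The 3 strongest regions were not at a start of the sequence table. They lay at another end of Wls, the carrier of secreted Wnt proteins (chr3:159939406-159939679), Lars2, the mitochondrial leucyl-tRNA synthetase (chr9:123461880-123462197), and Mid1, a ubiquitin ligase (chrX:169991115-169991538). Wls had fold enrichments of 46.1 and 45.6 in knockout replicates 1 and 2, against 48.6 and 50.5 in wild-type replicates 1 and 2, and Lars2 had 36.4 and 40.9 in knockout, against 44.5 and 43.5 in wild type. These folds are the authors' values, taken at the summit relative to background nearby. They stood far above the median gene-end region, which had 9.19 and 12.04 in knockout and 16.4 and 13.7 in wild type. No filter for repeated or artefact-prone sequence was applied to the peaks here, and whether read mapping contributes at these 3 regions was not tested.

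The strongest promoters belonged to genes of varied roles. Pxmp4, a peroxisomal membrane protein (chr2:154603599-154604011), had percentiles of 98.6 and 99.2 in knockout, against 99.6 and 99.2 in wild type. Next came Pja2, a ubiquitin ligase, Fxr2, an RNA-binding relative of the fragile X protein, Edem3, which trims sugars from misfolded glycoproteins, and Narf, which binds prelamin A. Camsap1, a binder of microtubule minus ends, and Gins2, a subunit of the replicative helicase, completed the 10 strongest. Their percentiles ran from 97.7 to 99.9 over all 10 regions and 4 libraries, a range in which a rank has little room to move.

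Gene-end regions were stronger than other regions open in all 4 lists, in each library. Their median percentile was 69.7 and 72.2 in knockout replicates 1 and 2, against 73.0 and 72.1 in wild-type replicates 1 and 2. The other regions had 62.2 and 61.3 in knockout, against 60.4 and 60.8 in wild type. The ratio of median fold, gene-end over other regions, was 1.15 and 1.20 in knockout and 1.22 and 1.22 in wild type (exact permutation p = 0.33 for the genotypes, two-sided, the smallest that 2 libraries against 2 can give). The share of gene ends also grew with the number of lists: of merged regions found in 1, 2, 3 and 4 lists, 18.7%, 24.1%, 36.1% and 52.1% lay at gene ends.

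**Figure D2:**
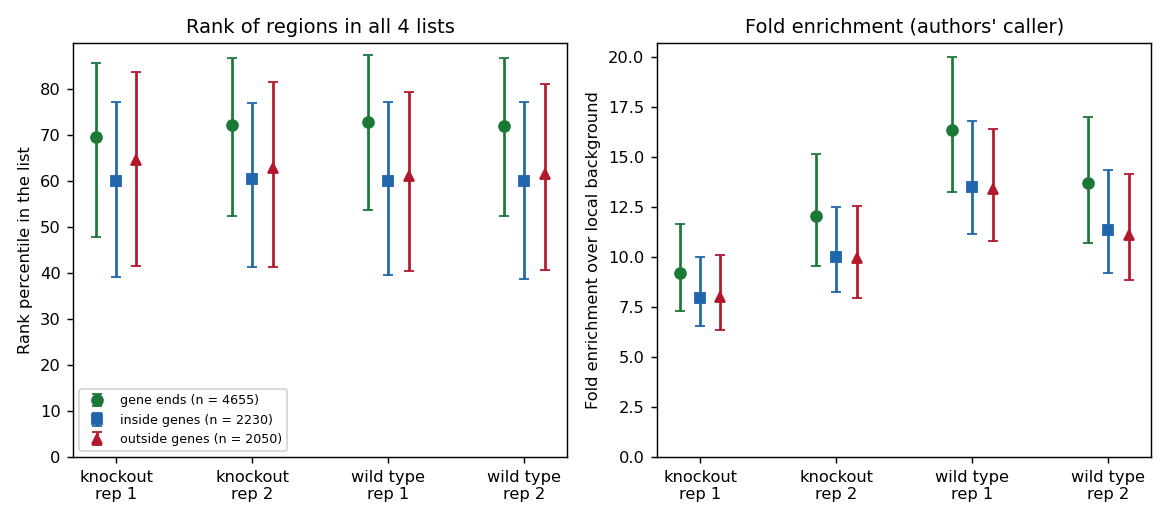
Median (points) and quartiles (bars) over regions open in all 4 lists, by library, for gene ends, insides of genes and regions outside genes. The left panel has the rank percentile and the right panel the authors' fold enrichment. Gene ends have the highest median in each library on both scales, and fold levels follow the library (9.19 in knockout replicate 1, 16.4 in wild-type replicate 1).

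The 4 lists were not equally deep, and knockout replicate 1 stands apart. Knockout replicate 1 had the shortest deposited list and knockout replicate 2 had 24292 peaks, against 33721 and 18511 in wild-type replicates 1 and 2, so the equal-length rule kept all peaks of the first and 41.2% of the longest. The lowest −log10 q kept was 3.005 and 12.7 in knockout, against 23.7 and 9.62 in wild type. The files hold no read counts, so sequencing depth is unknown, and fold, −log10 q and peak width were not compared between genotypes as signs of accessibility. Gene-end regions with a peak numbered 5465 and 6026 in knockout, against 6329 and 6143 in wild type (5746 ± 397 and 6236 ± 132, SD, n = 2 each, exact permutation p = 0.33). Of these, 85.2% and 77.2% were shared by all 4 lists in knockout, against 73.6% and 75.8% in wild type.

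Peaks at gene ends were slightly wider than those of other regions in each library (ratio of mean widths 1.02 to 1.07), and their width followed the list. Mean width was 230 and 287 bp in knockout replicates 1 and 2, against 322 and 268 bp in wild-type replicates 1 and 2, and the difference of -36.0 bp was smaller than the spread within genotypes (259 ± 40.3 and 295 ± 38.1 bp, SD, n = 2 each, exact permutation p = 0.667). With 1 library left out it ran from -64.7 bp (without knockout replicate 2) and -62.8 bp (without wild-type replicate 2) to -8.75 bp (without wild-type replicate 1) and -8.59 bp (without knockout replicate 1). Merged over the 4 lists, gene-end regions had a median width of 305 bp (quartiles 249 to 385), close to 293 bp for the other regions, and stronger ones were wider (Spearman rho 0.489 over regions, a description, since regions of 1 library share its depth).

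The 5 widest gene-end regions ran from 996 to 1346 bp. Cep95 and Ddx5, which encode a centrosomal protein and an RNA helicase and start near each other, shared a region of 1066 bp (chr11:106788377-106789442). Sp1, the zinc-finger factor whose family binds GGGCGG, had 1023 bp (chr15:102405295-102406317). Others were at Sirt4, a mitochondrial sirtuin, with 1025 bp, Setd5, a SET-domain protein, with 996 bp, and the predicted gene Gm52481 on chromosome Y, with 1346 bp. Among these, Setd5 ranked lower in knockout, at percentiles 35.8 and 73.0, against 76.7 and 74.0 in wild type, and Gm52481 ranked higher, while Sp1, Sirt4 and Cep95 overlapped between genotypes.

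By gene class, gene-end regions marked the machinery that every cell uses. Of 78 cytosolic ribosomal protein genes 55 (70.5%) had a region, as had 15 of 21 splicing snRNP and SF3 genes, 21 of 30 Mediator subunits, 39 of 56 translation initiation factor genes and 19 of 28 nuclear pore genes, against 24.2% of all protein-coding genes. The share was 24 of 38 for respiratory complex I, 12 of 20 for aminoacyl-tRNA synthetases, 39 of 78 for mitochondrial ribosomal proteins and 22 of 49 for the proteasome. Among regulators it was 17 of 32 for cyclins and cyclin-dependent kinases, 8 of 15 for AP-1 genes and 126 of 367 for genes named Zfp. Low shares were those of 5 of 44 collagens, 2 of 39 Hox genes, 1 of 27 integrins, 1 of 22 fibroblast growth factors, 2 of 353 vomeronasal receptors and 0 of 19 Wnt, 0 of 104 keratin and 0 of 1109 olfactory receptor genes. Mesenchymal transcription factors, with 6 of 24, were near the share of all genes. A region must be in all 4 equal-length lists, so a class without one may still have weaker peaks.

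**Figure D3:**
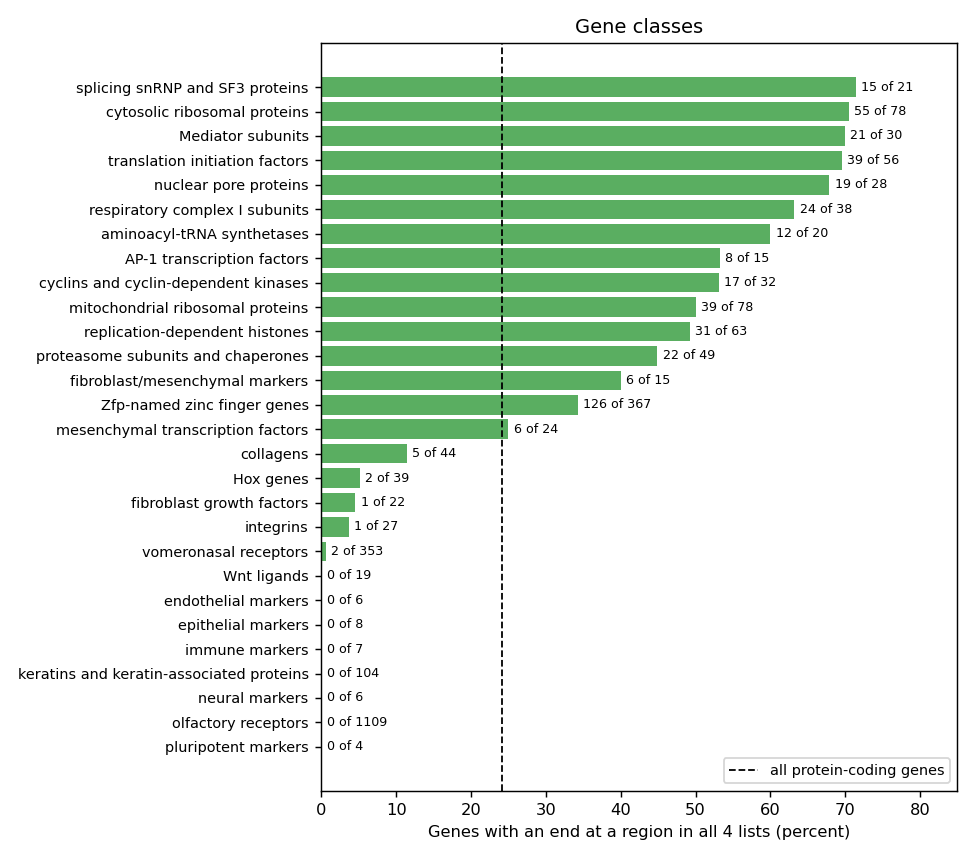
Percentage of the genes of each class (horizontal axis) with a gene-end region open in all 4 lists, with the count beside each bar. The dashed line is the 24.2% of all protein-coding genes, and the classes run from 15 of 21 splicing genes down to classes with 0.

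Markers of the labelled cell type, an embryonic fibroblast, were open in part. Of 15 fibroblast and mesenchymal markers, 6 had such a region (Cd44, Col1a2, Fn1, Lox, S100a4 and Vim), and Col1a1 and Ddr2 lacked only a peak of knockout replicate 1, while Sparc had one in wild-type lists alone. Col3a1, Pdgfra, Pdgfrb, Prrx1, Thy1 and Twist1 had no gene-end peak in any of the equal-length lists. Of the epithelial, endothelial, immune, neural and pluripotent markers, 0 of 8, 0 of 6, 0 of 7, 0 of 6 and 0 of 4 had a region, and of these 31 genes Cd68 and Map2 had a gene-end peak, each in knockout replicate 2 alone. A peak at a gene end shows open DNA, not expression.

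Promoter sequence at gene-end regions was that of CpG-island promoters. The 3699 promoters nearest to a region had a median GC content of 62.0% and an observed over expected CpG ratio of 0.822 in the window from 250 bases before the start to 50 after it, against 56.3% and 0.567 over all 21263 protein-coding promoters of the table. GGGCGG was present in 74.1% against 46.2% of all promoters, CCAAT in 50.0% against 38.2%, and the ETS letters CCGGAAG in 23.6% against 11.6%. Shares of the rarer motifs were 7.14% against 3.52% for NRF1 (GCATGCGC), 5.97% against 3.05% for YY1 (AAGATGGC), 4.79% against 2.23% for CRE (TGACGTCA) and 11.8% against 7.84% for the E-box (CACGTG). Going the other way were the TATA box (TATAAA, 4.84% against 12.6%), AP-1 (TGANTCA, 4.11% against 6.99%) and TEAD (GGAATG, 10.8% against 13.6%). Each motif was searched by its exact letters on both strands, some overlap by chance in GC-rich DNA, and a match is not evidence of binding.

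For the 8 motifs other than CCAAT and GGGCGG, the strongest region with a match within 60 bp of its summit is given with up to 20 bases on either side. Only the named motif is in capitals.
Kifc1 (ETS, chr17:33890777-33890823, minus strand): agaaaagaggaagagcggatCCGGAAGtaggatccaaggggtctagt
Wdr89 (NRF1, chr12:75669670-75669717, minus strand): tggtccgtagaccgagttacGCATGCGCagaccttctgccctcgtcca
Prkcsh (YY1, chr9:22002874-22002921, plus strand): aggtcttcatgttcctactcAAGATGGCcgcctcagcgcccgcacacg
Slx4ip (CRE, chr2:136891527-136891574, plus strand): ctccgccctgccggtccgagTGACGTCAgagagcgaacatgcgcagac
Pip4p1 (E-box, chr14:50931030-50931075, minus strand): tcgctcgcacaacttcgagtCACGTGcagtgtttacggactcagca
Gsk3b (TATA box, chr16:38088864-38088909, plus strand): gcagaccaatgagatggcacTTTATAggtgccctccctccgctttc
Msmo1 (AP-1, chr8:64733679-64733725, minus strand): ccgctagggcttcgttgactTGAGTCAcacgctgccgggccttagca
Tpp2 (TEAD, chr1:43933858-43933903, plus strand): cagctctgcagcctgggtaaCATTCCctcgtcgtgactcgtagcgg
The limit of 60 bp was part of the choice, so the lines are examples and do not show how near such letters usually lie to summits. Kifc1 encodes a minus-end kinesin, Prkcsh a subunit of glucosidase II, Slx4ip a partner of the nuclease scaffold SLX4, Pip4p1 a phosphoinositide phosphatase, Gsk3b a kinase of Wnt and glycogen signalling, Msmo1 an enzyme of cholesterol synthesis and Tpp2 a peptidase. The TATA letters at Gsk3b read on the opposite strand.

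Among the gene-end regions, a CCAAT match went with strength. The 1907 regions whose nearest promoter has one had a median mean percentile of 76.3, against 65.4 without one. GGGCGG showed the same order with 71.9 against 67.4, while for ETS the median was 69.7 with a match and 71.2 without. GC content itself hardly ordered the regions (Spearman rho 0.0517 over 3801 regions), though regions at promoters under 50% GC were weaker, with a median of 58.3 against 73.4 at 60 to 70% GC.

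Between genotypes, the gene-end regions as a whole held nearly the same rank. Their mean percentile was 65.0 and 67.5 in knockout replicates 1 and 2, against 68.7 and 67.5 in wild-type replicates 1 and 2, a difference of -1.84 points (66.3 ± 1.76 and 68.1 ± 0.850, SD, n = 2 each, exact permutation p = 0.667). Knockout replicate 2 and wild-type replicate 2 had the same mean to 3 digits, so the groups overlap, and the difference was -0.967 points without knockout replicate 1, -3.04 without knockout replicate 2, -1.11 without wild-type replicate 1 and -2.24 without wild-type replicate 2. Other regions had means of 59.6 and 59.2 in knockout, against 58.2 and 58.6 in wild type. The lead of gene ends over other regions was thus 5.40 and 8.29 points in knockout, against 10.5 and 8.89 in wild type, and these did not overlap (-2.85 points, exact permutation p = 0.33, the smallest possible). Without knockout replicate 1 the difference in lead was -0.718 points, and with each of the other libraries left out it was -3.28 to -4.65 points.

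Rank order was also kept more closely at gene ends than elsewhere. The median absolute difference in percentile between a knockout and a wild-type library ran from 6.65 to 8.51 points over the 4 pairs at gene ends, against 11.3 to 13.5 points at other regions. Between replicates it was 7.28 points in knockout and 5.75 in wild type at gene ends, against 9.78 and 8.32 elsewhere. For gene ends, the differences between genotypes were therefore about as large as those between the knockout replicates, and for other regions they exceeded both replicate pairs. Gene-end regions also ranked higher, with a median mean percentile of 70.1, against 58.0 for other regions. High ranks have less room to move, and the 2 sets were not compared at equal strength.

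Single regions were called where both knockout percentiles lay above, or both below, both wild-type percentiles. By this call 727 gene-end regions (15.6%) ranked higher in knockout, against 21.1% of all regions open in all 4 lists, and 1203 (25.8%) ranked lower, against 25.0% of all. The share that ranked higher was therefore below that of all regions, whereas the share that ranked lower was near it. This did not hold for every kind of gene end. Of the 3801 regions at starts of the sequence table, 14.9% ranked higher and 26.1% lower. Of the 137 only at another end, 27.0% ranked higher and 19.7% lower, with a median shift of 1.26 points. The median shift was -1.39 points at gene ends and 0.119 points at other regions, of which 27.1% ranked higher and 24.2% lower. Where a gap of at least 10 points between the genotypes was asked for, 160 gene-end regions (3.44%) ranked higher, against 7.53% of all, and 291 (6.25%) lower, against 7.71% of all. These are counts over ranks with 2 libraries a genotype and carry no p-value.

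**Figure D4:**
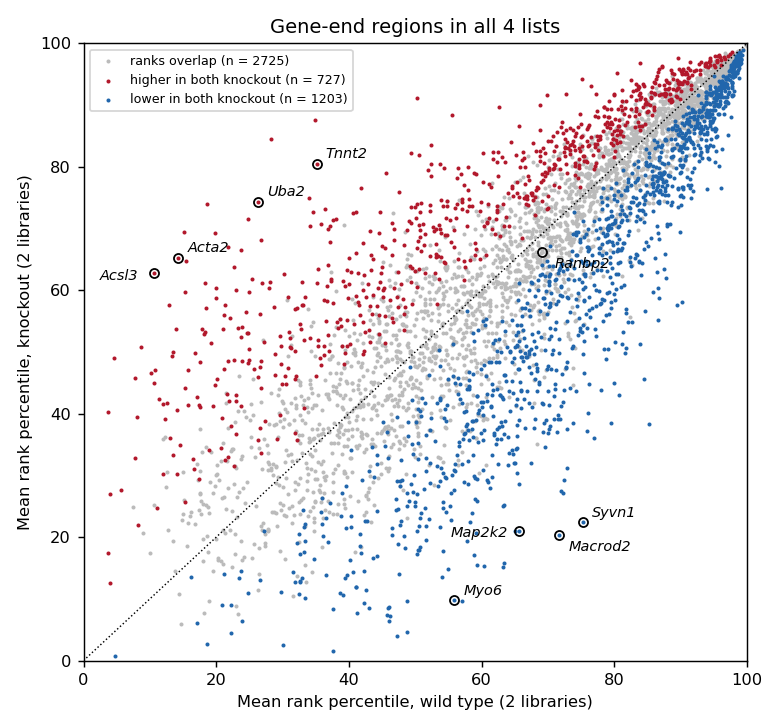
Mean rank percentile of each of 4655 gene-end regions in knockout (vertical axis, 2 libraries) and wild type (horizontal axis, 2 libraries). Colour marks regions that ranked higher (727) or lower (1203) in both knockout libraries or overlapped (2725), circles mark named genes, and points narrow toward the diagonal at high ranks.

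The lower share of higher-ranked regions at gene ends held in each class of strength. Among regions with a mean percentile of 90 to 100, 11.7% at gene ends ranked higher in knockout, against 35.6% elsewhere. In that class 31.2% ranked lower, against 17.9% elsewhere. Shifts there were small, with a median of -0.823 points at gene ends and 0.0883 elsewhere. Between 25 and 50, 17.2% ranked higher, against 25.9% elsewhere, and 23.3% lower, against 24.4% elsewhere. Within 100 bp of the gene end 15.4% ranked higher and 25.7% lower. Further from the end the higher share rose, to 17.1% at 250 to 500 bp, 19.7% at 500 to 750 bp and 27.3% at 750 to 900 bp. The lower share in these bins was 27.3%, 18.4% and 15.9%. Just inside the 1 kb limit, between 900 and 1000 bp, 26.8% of 56 regions ranked higher and 16.1% lower. Just outside it, between 1000 and 1100 bp, 7.84% of 51 ranked higher and 23.5% lower. That small bin does not stand for regions further out, since 23.9% of 348 between 1100 and 2000 bp ranked higher and 21.3% lower.

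The promoters that ranked furthest above wild type in knockout included a contractile gene and a SUMO enzyme. Acta2, smooth muscle actin (chr19:34255262-34255735), had percentiles of 75.2 and 55.3 in knockout, against 12.99 and 15.6 in wild type. Acsl3, a long-chain acyl-CoA synthetase (chr1:78657659-78657903), had 56.0 and 69.5 in knockout, against 14.9 and 6.31 in wild type. Uba2, a subunit of the enzyme that activates SUMO (chr7:34168482-34168659), had 73.6 and 75.0 in knockout, against 35.4 and 17.1 in wild type. In none of these did the genotypes overlap, with mean shifts of 50.9, 52.2 and 48.0 points.

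Acta2 had folds of 9.30 and 9.35 in knockout, against 8.60 and 7.42 in wild type, and Acsl3 had 8.66 and 12.98 in knockout, against 10.3 and 7.73 in wild type. The median gene-end region had 9.19 and 12.04 in knockout, against 16.4 and 13.7 in wild type. The other members of this group were Mrps28, a mitochondrial ribosomal protein, Hrct1, and regions at other ends of, or near, predicted genes. The predicted gene 9530057J20Rik had 2 of them, with the widest shift of 56.3 points (94.7 and 74.2 in knockout, against 29.6 and 26.8 in wild type), and Gm7697, Gm51573 and LOC100504180 had 1 each. Of the 10 regions, 5 lay only at another end of a gene, a position that 2.94% of all gene-end regions have.

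The promoters that ranked furthest below wild type in knockout were of enzymes, a motor and signalling genes. Syvn1, the ubiquitin ligase of misfolded proteins of the endoplasmic reticulum (chr19:6046370-6046611), had percentiles of 22.5 and 22.4 in knockout, against 76.1 and 74.3 in wild type. Macrod2, which removes ADP-ribose from proteins (chr2:140395208-140395521), had 7.03 and 33.6 in knockout, against 69.0 and 74.4 in wild type. Myo6, the myosin that walks toward actin minus ends (chr9:80164905-80165090), had 12.6 and 6.88 in knockout, against 54.1 and 57.7 in wild type. Syvn1 had the widest shift, -52.8 points, and close replicates in both genotypes.

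The authors' folds, like those of the median gene-end region, were lower in both knockout libraries at Syvn1 and Map2k2. Syvn1 had 5.45 and 6.37 in knockout, against 14.7 and 12.2 in wild type, and Map2k2, the kinase MEK2 of the ERK cascade (chr10:81105822-81105999), had 4.87 and 6.49 in knockout, against 11.9 and 10.5 in wild type. The remaining members were Smu1, a splicing factor, Sh2b3, an adaptor of cytokine receptors, Isoc2a, Uhrf2, a relative of the maintenance factor of DNA methylation, Depdc1b, and the start shared by Arhgap39 and C030006K11Rik. Sh2b3 rests on an uneven knockout pair, with 0.944 and 30.7, against 60.1 and 66.6 in wild type. Of these 10 regions, 6 lay on chromosomes 9, 10, 13, 15 and 19, as did 488 of all 1203 gene-end regions that ranked lower.

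Ranbp2 itself kept an open promoter in the knockout clone. Its region (chr10:58446659-58446973, summit 69.5 bp upstream of the start) had percentiles of 55.0 and 77.3 in knockout, against 75.0 and 63.3 in wild type, and folds of 8.22 and 14.4 in knockout, against 18.1 and 13.02 in wild type. The genotypes overlap. A peak at the start does not report on a lesion in the coding sequence, so it does not check the knockout.

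For gene classes, counts are read against the 15.6% of gene-end regions that ranked higher and the 25.8% that ranked lower. Chromosomes 9, 10, 13, 15 and 19 held 1029 of all 4655 gene-end regions. Counts elsewhere have a different background. It was 27.5% higher and 11.7% lower on chromosomes 1, 17 and 18, and 16.3% and 21.6% on the remaining chromosomes. Over the 57 gene-end regions of cytosolic ribosomal protein genes the median shift was -4.52 points, against -1.39 over all gene-end regions, and 4 (7.02%) ranked higher and 23 (40.4%) lower. Rpl27 had percentiles of 97.0 and 97.9 in knockout, against 98.5 and 98.2 in wild type, and Rps26 had 92.9 and 94.4 in knockout, against 97.7 and 98.0 in wild type. The count differed by chromosome: 13 of the 57 lay on chromosomes 9, 10, 13, 15 and 19, of which 10 (76.9%) ranked lower, against 47.4% of all gene-end regions there, and elsewhere 4 of 44 ranked higher and 13 lower with a median shift of -2.16. Mean percentiles of the list were 63.0 and 66.9 in knockout, against 69.8 and 66.6 in wild type, so the list as a whole overlaps between genotypes.

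Mitochondrial ribosomal protein and nuclear pore genes also had more regions ranked lower than higher. For 43 regions of mitochondrial ribosomal protein genes the median shift was -3.10 points, with 3 (6.98%) higher and 14 (32.6%) lower. Of the 8 on chromosomes 9, 10, 13, 15 and 19, 5 ranked lower, and elsewhere 3 ranked higher and 9 lower of 35. Mean percentiles of that list were 63.0 and 62.2 in knockout, against 66.4 and 66.7 in wild type, which do not overlap. Nuclear pore genes, the class to which Ranbp2 belongs, had 2 (10.0%) higher and 7 (35.0%) lower of 20, and a median of -3.13. Of the 6 on those chromosomes 3 ranked lower, and elsewhere 1 ranked higher and 4 lower of 14. Nup54 of the central channel ranked higher at 94.2 and 93.3 in knockout, against 92.6 and 86.8 in wild type, while Nup98, Nup214 and Ahctf1 overlapped.

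Other machinery had more even counts. Initiation factors had 7 higher and 7 lower (16.7% each) of 42, with a median shift of 0.0721, and Eif5, Eif4a1, Eif4ebp2 and Eif2ak4 all overlapped. Splicing genes had 5 higher (31.2%) and 6 lower (37.5%) of 16, but 5 of the lower ones were among the 6 on chromosomes 9, 10, 13, 15 and 19, and elsewhere 5 ranked higher and 1 lower with a median shift of 4.84. Complex I had 5 and 5 (20.0% each) of 25 with a median shift of -2.998, and proteasome genes had 3 higher and 5 (21.7%) lower of 23. Snrpc, a component of the U1 particle, ranked higher with 96.6 and 94.7 in knockout, against 94.7 and 91.2 in wild type, and Sf3b2 on chromosome 19 ranked lower with 92.5 and 81.9 in knockout, against 95.4 and 94.0 in wild type. Med11, Med21, Med19 and Med26 of the Mediator complex overlapped, and of 21 Mediator regions 1 (4.76%) ranked higher and 3 (14.3%) lower.

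Most histone regions lay on a few chromosomes. Of 25 regions at replication-dependent histone genes, 5 (20.0%) ranked higher and 8 (32.0%) lower, with a median shift of -7.73 points, and 18 lay on chromosomes 9, 10, 13, 15 and 19, where 7 (38.9%) ranked lower, against 47.4% of all gene-end regions there. The region between H2ac6 and H2bc4 on chromosome 13 had 55.8 and 71.2 in knockout, against 88.9 and 86.0 in wild type, whereas H2ac19 on chromosome 3 had 91.5 and 94.6 in knockout, against 80.8 and 72.3 in wild type. The 7 regions elsewhere had a median shift of 5.85 points. The genes of a cluster are near copies, and the sources used here do not say how reads that map to several of them were treated.

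Growth and matrix genes gave mixed values. Among cyclins and their kinases, the median mean percentile was 85.1, the highest of the classes with more than 10 regions, and 2 (11.8%) ranked higher and 6 (35.3%) lower of 17. Of these 17, 8 lay on chromosomes 9, 10, 13, 15 and 19, where 5 (62.5%) ranked lower, against 47.4% of all gene-end regions there. Elsewhere 2 ranked higher and 1 lower of 9, with a median shift of 0.649 points. Cdk4, the G1 kinase, overlapped at 96.9 and 96.9 in knockout, against 97.3 and 96.6 in wild type. Of the AP-1 genes, Jun, Fosl2, Mafk and Maff overlapped, and 3 of 9 regions (33.3%) ranked higher and 1 (11.1%) lower. Fn1, fibronectin (chr1:71653013-71653701), ranked higher with 82.0 and 81.8 in knockout, against 61.6 and 68.9 in wild type, as did Lox, the collagen crosslinking enzyme, with 86.7 and 86.4 in knockout, against 82.0 and 79.6 in wild type. Itgb1, the beta1 integrin that binds fibronectin with its alpha partners, ranked higher with 60.2 and 62.2 in knockout, against 31.2 and 39.3 in wild type. Of 5 collagen regions, Col23a1 and Col5a2 ranked lower, and Col6a2, Col16a1 and Col1a2 overlapped. The fibroblast marker list, which holds Fn1 and Lox, had 7 regions, 2 higher and 1 lower. The lower one was at Vim, the intermediate filament protein vimentin, upstream of its start, with 38.3 and 41.5 in knockout, against 59.0 and 61.5 in wild type. A second Vim region nearer the start overlapped, as did Cd44 and S100a4.

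The shift differed by chromosome. The median over gene-end regions ran from -7.82 points on chromosome 13 to 2.95 on chromosome 17. All 4 knockout and wild-type pairs had a negative mean shift on 9 of 20 chromosomes and a positive one on 2, chromosomes 17 and 18. On chromosomes 9, 10, 13, 15 and 19, 5.73% of 1029 gene-end regions ranked higher in knockout and 47.4% lower, against 19.9% and 35.1% of the other regions there. On chromosomes 1, 17 and 18, 27.5% of 683 ranked higher and 11.7% lower, against 32.2% and 18.4% of the other regions there. These chromosomes were grouped with earlier results of the same libraries known, so the split describes them and is no independent support.

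The low share of higher-ranked gene ends was present on nearly every chromosome. It was below that of other regions on 19 of 20, and the median shift of gene ends was below that of other regions on 18 of 20. All chromosomes were read in the same 4 libraries, so they do not replicate one another. Over all chromosomes, the genotype difference in the lead of gene ends was -2.85 points, and -0.718 points without knockout replicate 1. Away from the 8 chromosomes named above, 2943 gene-end regions had a median shift of -0.872 points with 16.3% higher and 21.6% lower, and the 2637 other regions had 0.685 points with 28.7% higher and 21.4% lower. The lower-ranked share, in contrast, exceeded that of other regions on 10 of 20 chromosomes.

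**Figure D5:**
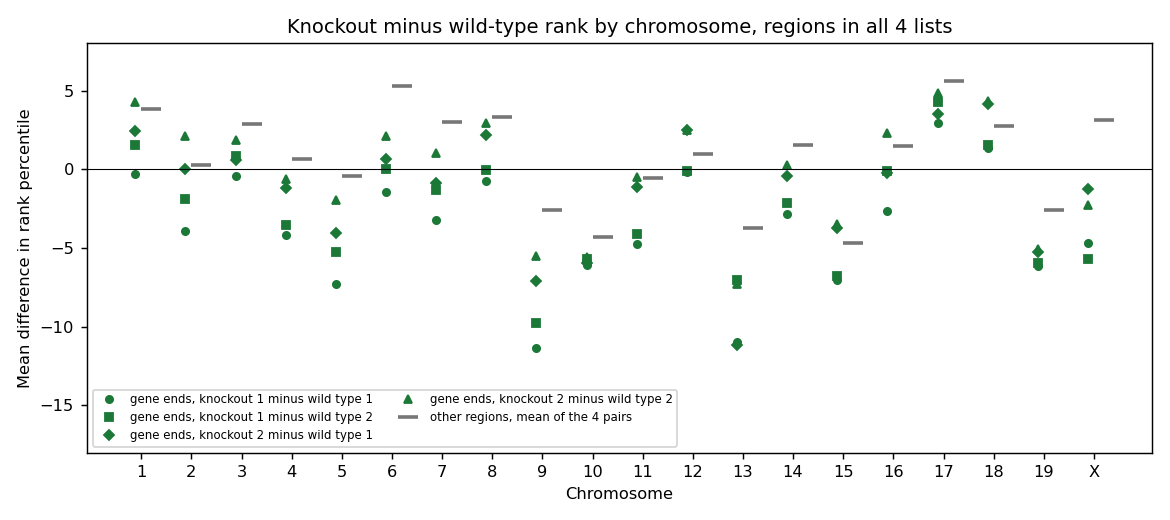
Mean difference in rank percentile, knockout minus wild type, of gene-end regions by chromosome for each of the 4 pairs of libraries (green symbols), with the mean for other regions open in all 4 lists (grey bars). All green symbols lie below 0 on chromosomes 9, 10, 13, 15 and 19 and above 0 on chromosomes 17 and 18.

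The authors' deposited differential lists touched few gene-end regions, and unequally. Of the gene-end regions, 14 (0.301%) overlapped the deposited list of 189 regions enriched in knockout, against 0.929% of all regions open in all 4 lists, and 74 (1.59%) overlapped the deposited list of 190 regions enriched in wild type, against 1.61% of all. The wild-type-enriched share was near its background and the knockout-enriched share below it, and 69 of the other regions (1.61%) were in the deposited knockout-enriched list. These lists give positions only, and the threshold behind them is not stated in the sources used here.

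Rank shifts had the direction of the deposited lists. Of the 14 in the deposited knockout-enriched list, 12 ranked higher in knockout and 0 lower, with a median shift of 17.2 points. Of these 14, 9 were on chromosomes 1, 17 and 18, which held 683 of all 4655 gene-end regions. Of the 74 in the deposited wild-type-enriched list, 54 ranked lower in knockout and 0 higher, with a median shift of -8.78 points. Of these 74, 69 were on chromosomes 9, 10, 13, 15 and 19, which held 1029 of the 4655. The lists may rest on these same libraries, so their overlap with the ranks is not independent support.

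In the deposited knockout-enriched list, Tnnt2, cardiac troponin T (chr1:135852389-135852649, at another end of the gene), had the widest shift, with percentiles of 79.4 and 81.6 in knockout, against 48.2 and 22.0 in wild type. Epg5, an autophagy tether on chromosome 18, had 81.7 and 77.2 in knockout, against 57.6 and 46.3 in wild type. Gigyf2, a repressor of translation, had 95.6 and 95.03 in knockout, against 81.8 and 91.6 in wild type. Ilrun, Wdr90 and 1600012H06Rik, all on chromosome 17, also ranked higher, and Rrp36, a ribosome assembly factor, and Zfp667 overlapped.

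In the deposited wild-type-enriched list, the strongest promoters shifted by less than 3 points. They were named for their high percentiles, where a rank has little room to move, and the median shift over all 74 regions was -8.78 points. Mbd3, a subunit of the NuRD complex, had 97.9 and 97.2 in knockout, against 99.0 and 99.3 in wild type, and Rab5b, an endosome GTPase, had 96.0 and 97.7 in knockout, against 99.2 and 98.9 in wild type. Dazap1, Csnk1g2, Izumo4 and Pa2g4 ranked lower too, whereas Sp1 and Tnrc6b overlapped. Syvn1, with the widest shift of all lower regions, was in the deposited wild-type-enriched list, and the other 9 regions with the furthest shift down were not.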

How the data were processed

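ATAC-seq peaks of 4 libraries were used, 2 from Ranbp2 knockout and 2 from wild-type 10T1/2 cells, as grouped by the labels. Per the submitters' processing notes, reads were handled in build mm10 with tools that include MACS2, Bowtie2 and cutadapt, besides DESeq2, deepTools and DiffBind 2.2.12, whose roles are not given. The authors deposited 1 peak list per library, called separately. In the deposited lists the fold enrichment is a ratio of summit to local background, −log10 p and −log10 q come from the caller, and the score is the −log10 q times 10, truncated (0.0376% of peaks depart from this). No read counts or depths were used, so ranks are the main scale compared between libraries. The authors' differential lists hold positions only.

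Lists were cut to the length of the shortest, merged at 1 bp and set against RefSeq spans of 21887 protein-coding genes (GRCm38.p6). A promoter was matched for 17492 of these genes. A gene was assigned where its end lay within 1 kb of the midpoint. A call compares ranks of 2 against 2 libraries, and tests over libraries were two-sided exact permutation tests. Genes named are those at the 10 strongest regions, the 10 with the furthest call in each direction, the 5 widest, up to 4 per gene list and up to 8 per deposited list, with Ranbp2. The regions, gene lists and naming rule were chosen with earlier results of these data known. Finding gene-end regions and calling the direction of a shift were tested on simulated lists. Those lists had identical peak positions and were not shortened, so shortening and the merging of offset peaks were not tested. Alternatives were list length, a stricter threshold, overlap, window, ranking by fold, leaving out each library and a replicate block. Python 3.11.15, pandas 2.3.3 and numpy 2.4.6 were used.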

Additional observations from a re-analysis of the deposited data

How the results depend on the processing

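The count of gene-end regions kept its size under each alternative run (3782 to 5210), and the share ranked higher in knockout stayed below that of all regions open in the lists under each but the replicate block, where the share of all regions was not computed. The size of the genotype calls did not. The count ranked higher in knockout was 97 with lists as deposited, where ranks come from lists of unequal length, 160 with a gap of at least 10 points and 480 without chromosomes 1, 9, 10, 13, 15, 17, 18 and 19, which removes regions. The count ranked lower was 291 with that gap and 635 without those chromosomes. The gap and the chromosomes were chosen after seeing the data. With 1 library left out, 3 libraries make the call easier to meet, and the higher count ran from 1243 to 1659 and the lower from 1851 to 2243. With 10000 peaks per list, 8 gene-end regions overlapped the deposited knockout-enriched list.

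The mean percentile difference was negative under each alternative, from -8.27 with lists as deposited to -0.309 at a −log10 q of at least 10, and without 1 library it ran from -3.04 to -0.967. The replicate block gave 1017 higher and 1595 lower calls and the same mean of -1.84. The replicate numbers were taken from the titles. Library names number the first replicates 2 in knockout and 1 in wild type, and both second replicates 3. Deviations of same-numbered libraries had a correlation of 0.0693 over regions. With 2 pairs only, this cannot decide whether same-numbered libraries were handled together. With 2 libraries a genotype no exact test can go below 0.33, and unknown depth leaves peaks under a list's threshold unseen.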

Other observations

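A number of genes had several gene-end regions. There were 310 with at least 2, and Usp5, a deubiquitinase, had 4, with mean percentiles of 54.9, 90.5, 88.8 and 52.5 over the 4 libraries. The last 3 of these were also at an end of Cdca3. The start shared by Cbx5, the heterochromatin protein HP1 alpha, and Hnrnpa1, a splicing regulator, had 3, with 83.3, 44.7 and 87.6. U2af2, a splicing factor that reads the 3′ splice site, had 3 weaker ones, with 26.9, 58.2 and 51.3. Gene spans with a region had a median of 20.6 kb, against 15.9 kb for genes without one. Lower quartiles were 9.32 and 4.65 kb, whereas upper quartiles were close, at 44.0 and 44.5 kb.

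Motif shares differed somewhat between regions by direction, as a description with no test. CCAAT was present at 45.0% of promoters of regions ranked higher in knockout, 55.6% of those ranked lower and 49.0% of those that overlapped. The CRE letters were at 6.58%, 3.85% and 4.81%, and the TEAD letters at 14.1%, 10.1% and 10.3%. CCAAT also went with strength. GC content did not order the shift (Spearman rho 0.00795 over 3801 regions, from -0.0861 to 0.134 over the 4 pairs of libraries).

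A pair of vomeronasal receptor genes, of a family used in a sensory organ, had gene-end regions. Vmn2r29 had percentiles of 97.2 and 94.5 in knockout, against 96.0 and 98.5 in wild type, and Vmn1r4, whose region is also at an end of Nt5c3, had 71.8 and 59.3 in knockout, against 45.2 and 59.2 in wild type.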
